A study of Mus musculus with 6 samples.

Results

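The transcripts described here are those of 9 cathepsins, Ctsb, Ctsc, Ctsd, Ctsf, Ctsh, Ctsk, Ctsl, Ctss and Ctsz, and of cystatin C, Cst3. They were taken by gene name from tables of 36333 genes, and all 10 were found and had a mean of at least 1 TPM (transcripts per 1e+06) in both groups. The cells were bone marrow derived macrophages of C57BL/6 mice, cultured for 7 days with 10 ng/mL of the growth factor M-CSF and replated at 250000 cells per well of a 24-well plate. Stearic acid, a saturated fatty acid, was added at 100 µM for 24 h to 3 samples (the stearic acid group), and the same volume of its solvent, ethanol, to 3 others (the vehicle group). Both groups were of the same strain and no genetic change is named. The labels number the replicates 1 to 3 but do not say whether they came from separate animals or cultures, so the p-values here reflect the spread among these libraries alone, and that spread may be technical. Polyadenylated RNA was sequenced, so the values are transcript levels and not protein or enzyme activity. The comparison asks how the transcripts of these proteases and of their inhibitor differ after stearic acid.

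Cathepsins are proteases of the lysosome. They are made as inactive precursors, sorted to lysosomes largely by mannose 6-phosphate tags and activated there by cleavage at acidic pH. Cathepsins B, C, F, H, K, L, S and Z are cysteine proteases of the papain family, whereas cathepsin D is an aspartic protease. Cystatin C is a small secreted protein that blocks cysteine cathepsins and does not block cathepsin D. Macrophages carry large amounts of these enzymes for the breakdown of engulfed material. Leakage of cathepsins from damaged lysosomes has been proposed as one of the signals that engage the NLRP3 inflammasome, which is the setting of the series as its title gives it.

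With stearic acid, 5 cathepsin transcripts rose (Ctsk, Ctsz, Ctsd, Ctsb and Ctsl), 3 fell (Ctsc, Ctsf and Ctsh), and Ctss and Cst3 did not pass the test. The test was limma on log2(TPM + 1) over 11551 genes, with Benjamini-Hochberg adjustment over all of them and a threshold of 0.05. Among all genes tested 24.7% passed it, 12.8% as higher and 11.9% as lower, against 8 of the 10 members. Among the 1714 genes that averaged 100 TPM or more the share was 31.0%, and 5 of the 7 members at that level passed. The median log2 fold change of the 10 members was 0.15, and that of all genes tested was -0.03. The groups did not overlap in the 8 members that passed, against 44.6% of all genes tested. Leaving out vehicle replicate 1 gave 3 rises, leaving out vehicle replicate 3 gave 2, leaving out stearic acid replicate 3 gave 3, and removing the filter on low values gave 2. In the same order, these fits called 1073, 628, 1005 and 1027 of all genes, in place of 2856. Leaving out stearic acid replicate 1 gave 4 falls, as Cst3 then passed too, and leaving out any of the 5 remaining libraries gave 1. Without stearic acid replicate 1, 5010 of all genes passed, and without each of the 5 others 550 to 1997. Calls lost or gained in such fits, here and below, are to be read beside these totals.

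**Figure D1:**
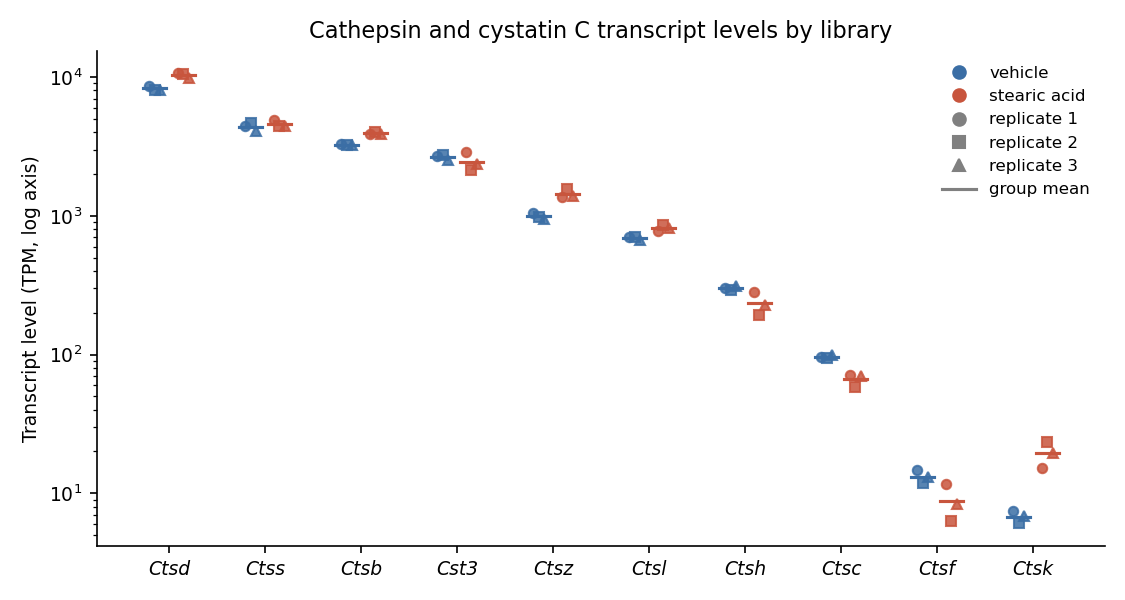
Transcript level in TPM on a log axis for each of the 10 genes, ordered by the vehicle mean. Blue points are vehicle libraries, red points stearic acid libraries, marker shapes give the replicate number and lines the group mean. Ctsd is the highest in both groups, and Ctsk moves from below Ctsf in vehicle to above it with stearic acid.

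In vehicle cells the levels spanned 3 orders of magnitude and the library ranges of no pair of neighbours in the order overlapped. From the top the order was Ctsd, Ctss, Ctsb, Cst3, Ctsz, Ctsl, Ctsh, Ctsc, Ctsf and Ctsk. Ctsd was the gene of rank 6 of all genes by mean TPM in vehicle and of rank 4 with stearic acid, Ctss of rank 11 and 14, Ctsb of rank 17 and 16, and Cst3 of rank 32 and 33. At the other end Ctsk ranked 9073 in vehicle and 6473 with stearic acid, and Ctsf ranked 7582 and 8528. With stearic acid the order was the same except that Ctsk and Ctsf changed places, again with no overlap between neighbours.

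Ctsd encodes the aspartic cathepsin D (NCBI gene 13033, chr7:142375910-142387827, minus strand, RefSeq on GRCm38.p6). Its level was 8613, 8099.7 and 8123 TPM in vehicle replicates 1, 2 and 3, and 10651, 10595 and 9895 TPM in stearic acid replicates 1, 2 and 3. Every stearic acid library lay above every vehicle library, and the 2 highest were replicates 1 and 2. The mean rose from 8279 ± 289.8 to 10380.2 ± 421 TPM (SD, n = 3), with a log2 fold change of 0.33 (SE 0.066; adjusted p = 0.012, limma). The call was lost when vehicle replicate 3 was left out (adjusted p = 0.061) and with no filter on low values (0.22). GENCODE M21 places another gene model, Gm49369, over 6757 bases of Ctsd on the same strand, so that reads there may not be separable.

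The promoter of Ctsd holds the letters bound by TFEB-type factors, which regulate lysosomal genes, and its sites are shown because Ctsd was the most abundant member and rose. The windows searched run from 250 bases before to 50 bases after each RefSeq start on GRCm38.p6, on both strands. The core CACGTG, the E-box, was found in the windows of 3 of the 8 members with an entry, Ctsd, Ctsf and Ctsl. Ctsb and Ctsh had no entry. All promoters held it in 7.15% of 32851 windows, and those of tested genes in 10.3%. The longer form GTCACGTG, which contains the core, was found in Ctsd alone of the 8 members, and in 2.25% of all windows and 4.35% of those of tested genes. In the lines below the capitals mark the core with any extension to the longer form, and distances are from the first base of the core to the start site. For Ctsl the start used lies inside the RefSeq gene span, so that its site falls within the outer end of that span and not before it. Of the 3 genes with the core, Ctsd and Ctsl rose and Ctsf fell. Of the members searched that lack it, Ctsk and Ctsz rose, Ctsc fell, and Ctss and Cst3 did not pass. A match of letters shows no binding.
Ctsd, 245 bases before the start, chr7:142388057-142388077, minus strand: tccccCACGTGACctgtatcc
Ctsd, 98 bases before the start, chr7:142387910-142387935, minus strand: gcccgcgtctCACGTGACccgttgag
Ctsl, 236 bases before the start, chr13:64370741-64370766, minus strand: cgttagaagcCACGTGctgatctaaa
Ctsf, 79 bases before the start, chr19:4855076-4855101, plus strand: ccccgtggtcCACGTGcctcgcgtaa

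Ctsb encodes cathepsin B, which cuts both within proteins and from their carboxyl ends (gene 13030, chr14:63122462-63145923). It stood at 3275, 3263 and 3253 TPM in the vehicle replicates and at 3872, 4032 and 3854 TPM in the stearic acid replicates. The vehicle libraries differed by less than the gap to the lowest stearic acid library, and the mean rose from 3264 ± 11.05 to 3919 ± 98.4 TPM (SD, n = 3). On the log2 scale this was a change of 0.26 (SE 0.059; adjusted p = 0.017, limma). The call ended on leaving out replicate 1 or 3 of vehicle or replicate 3 of stearic acid (adjusted p of 0.067 to 0.069), as did removing the filter (0.13). Under quantile normalization, which forces the libraries to 1 distribution, the log2 fold change was 0.13 and did not pass (limma adjusted p = 0.17). Fdft1, which lies on the other strand and overlaps it by 774 bases in GENCODE M21, was at 10.2 TPM in vehicle and 11.5 TPM with stearic acid.

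Ctsl encodes cathepsin L, a broad endopeptidase (gene 13039, chr13:64361890-64370772). Vehicle libraries held 699.6, 708 and 669.9 TPM, and stearic acid libraries 783, 863 and 810.1 TPM. The groups did not overlap, and the means were 693 ± 20.1 and 819 ± 40.8 TPM (log2 0.24, SE 0.064; adjusted p = 0.029, limma). This rise was among the least firm, since it passed in only 1 of the 6 fits that left out a library, the one without stearic acid replicate 1 (in the others the adjusted p reached 0.11). It also missed the threshold with median-of-ratios scaling (0.053) and with no filter (0.074). Of 11 genes listed for the placental cathepsin cluster, which holds the close relatives of Ctsl, none was tested, 9 were listed at 0 in every library and the highest value of the other 2 was 0.0558 TPM.

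Ctsz encodes cathepsin Z, also called cathepsin X, a carboxypeptidase (gene 64138, chr2:174427494-174439039). It was at 1051, 982 and 945 TPM in vehicle and at 1363, 1568 and 1389.6 TPM with stearic acid. The lowest stearic acid library lay well above the highest vehicle library. The mean rose from 993 ± 54.0 to 1440.2 ± 111 TPM (log2 0.53, SE 0.076; adjusted p = 0.0036, limma), a rise that passed in each of the 15 alternatives tried.

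Ctsk encodes cathepsin K, the collagen-degrading protease best known from osteoclasts, the bone-resorbing relatives of macrophages (gene 13038, chr3:95499210-95509387, plus strand). It was the member with the lowest level in vehicle, at 7.40, 6.09 and 6.81 TPM, and reached 15.2, 23.4 and 19.7 TPM with stearic acid. Each stearic acid library held more than 2 times the value of each vehicle library, replicate 2 the most and replicate 1 the least. The mean rose from 6.76 ± 0.656 to 19.4 ± 4.14 TPM (log2 1.38, SE 0.14; adjusted p = 0.00094, limma), a 2.60-fold rise on the log2(TPM + 1) scale. It passed in each of the 15 alternatives, with log2 fold changes from 1.04 to 1.54. At the recovered depth these values rest on 130.2 to 646 reads or read pairs per kilobase of transcript.

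Other osteoclast genes moved beside Ctsk in part. Of 9 listed, 6 were tested, of which 4 rose and 2 did not pass, beside the 12.8% of all tested genes that were higher. The summed level of the 9 was 73.7 to 91.0 TPM in vehicle libraries and 138 to 162 TPM in stearic acid libraries. Most of that difference was in 1 gene, Atp6v0d2. Atp6v0d2, a subunit of the vacuolar proton pump, rose from 25.4 ± 4.56 to 82.6 ± 11.2 TPM (SD, n = 3; log2 1.67; adjusted p = 0.00028, limma). Acp5, tartrate-resistant acid phosphatase, rose from 9.01 ± 0.828 to 13.7 ± 0.856 TPM (limma adjusted p = 0.0054). Dcstamp, a membrane protein that acts in cell fusion (log2 0.66), and Itgb3, integrin beta 3 (log2 0.50), rose too. The call of Dcstamp was lost on leaving out any vehicle library or stearic acid replicate 3, and that of Itgb3 on leaving out vehicle replicate 2 or 3. The calcitonin receptor Calcr reached at most 0.00948 TPM in any library, Oscar 0.279 TPM and Mmp9 0.502 TPM. Nfatc1, the osteoclast transcription factor, was at 35.2 ± 3.70 TPM in vehicle and 32.8 ± 2.42 TPM with stearic acid and did not pass (limma adjusted p = 0.46). In a bulk sample, more cells of a type and more RNA per cell cannot be told apart, and the part of osteoclast-like cells in the rise of Ctsk was not tested.

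**Figure D2:**
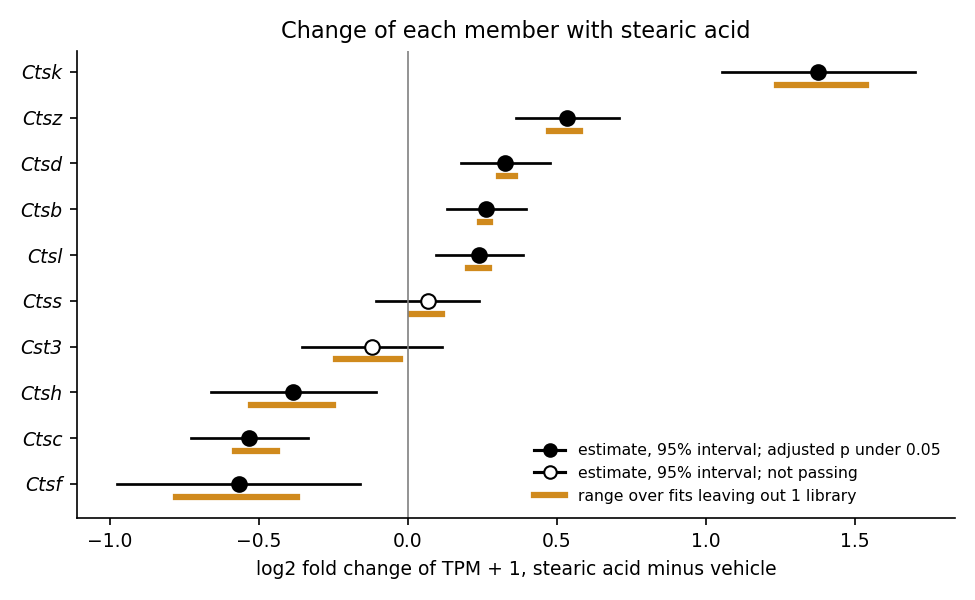
Log2 fold change of TPM + 1, stearic acid minus vehicle, for each gene with its 95% interval (limma). Filled points passed the adjusted threshold, open points did not, and orange bars give the range of estimates over the 6 fits that left out 1 library. Ctsk stands at 1.38, the other 4 rises lie between 0.24 and 0.53, and the 3 falls lie between -0.38 and -0.57.

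Ctsc encodes cathepsin C, or dipeptidyl peptidase I, which activates the serine proteases of leukocyte granules (gene 13032, chr7:88278024-88315861). It stood at 95.5, 93.7 and 99.5 TPM in vehicle and at 70.9, 58.2 and 70.4 TPM with stearic acid. The groups were apart and stearic acid replicate 2 was the lowest. The mean fell from 96.2 ± 2.99 to 66.5 ± 7.20 TPM (log2 -0.53, SE 0.087; adjusted p = 0.0058, limma), and the fall passed in each of the 15 alternatives. Elane, Prtn3 and Gzmb, granule proteases that it activates, and the granule peroxidase Mpo each stayed at or below 0.0932 TPM in every library.

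Ctsh encodes cathepsin H, an aminopeptidase (gene 13036, chr9:90054267-90076095). The vehicle libraries held 302, 292 and 314 TPM and the stearic acid libraries 282, 192 and 229 TPM. Replicate 1 of stearic acid came close to the vehicle range without entering it. The means were 303 ± 11.2 and 235 ± 45.3 TPM (log2 -0.38, SE 0.12), and the limma adjusted p of 0.049 was just under the threshold. The fall passed in only 1 of the 6 fits that left out a library, the one without stearic acid replicate 1, with adjusted p up to 0.16 in the others, and was -0.25 on the log2 scale without stearic acid replicate 2. It did not pass with a pseudocount of 0.1 (0.0503), RPKM, median-of-ratios scaling, quantile normalization, no intensity trend or no filter either.

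Ctsf encodes cathepsin F, which can process the MHC class II invariant chain in macrophages (gene 56464, chr19:4855165-4860918). It was low, at 14.6, 11.8 and 13.1 TPM in vehicle and at 11.7, 6.26 and 8.32 TPM with stearic acid. The groups all but touched, since stearic acid replicate 1 at 11.74 TPM lay just under vehicle replicate 2 at 11.77 TPM. The mean fell from 13.2 ± 1.42 to 8.77 ± 2.77 TPM (log2 -0.57, SE 0.18; adjusted p = 0.049, limma). Of the fits that left out a library, only the one without stearic acid replicate 1 kept the call (adjusted p up to 0.14 in the others), and the log2 fold change was -0.37 without stearic acid replicate 2. With a pseudocount of 0.1 the adjusted p was 0.0505, and the fall also missed the threshold with RPKM, median-of-ratios scaling, no intensity trend and no filter.

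Ctss encodes cathepsin S, which trims the invariant chain during antigen presentation and stays active at neutral pH (gene 13040, chr3:95526786-95556405). With 4435, 4686 and 4058 TPM in vehicle and 4872, 4439 and 4472 TPM with stearic acid, the groups overlapped. The means were 4393 ± 316 and 4594 ± 241 TPM, and the difference did not pass (log2 0.07, 95% interval -0.11 to 0.24; adjusted p = 0.54, limma). Its sign was negative under quantile normalization, at -0.21. The gene lies close to Ctsk on chromosome 3, and Ctsk rose while Ctss did not pass. Cd74, the invariant chain that cathepsin S cleaves, was at 331 ± 30.7 TPM in vehicle and 288 ± 26.5 TPM with stearic acid and did not pass (log2 -0.20; adjusted p = 0.14, limma).

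Cst3, the inhibitor, did not pass (gene 13010, chr2:148871722-148875512). It was at 2689, 2737 and 2533 TPM in vehicle, and at 2884, 2145 and 2351 TPM with stearic acid. Stearic acid replicate 1 was the highest of all 6 libraries, while replicates 2 and 3 lay below every vehicle library. The means were 2653 ± 106 and 2459.7 ± 381 TPM, with a log2 fold change of -0.12 (95% interval -0.35 to 0.12; adjusted p = 0.41, limma). Without stearic acid replicate 1 it passed as lower (log2 -0.24; adjusted p = 0.020, limma), the only 1 of the 15 alternatives in which it passed. Without stearic acid replicate 2 the log2 fold change was -0.03 (adjusted p = 0.89, limma).

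**Figure D3:**
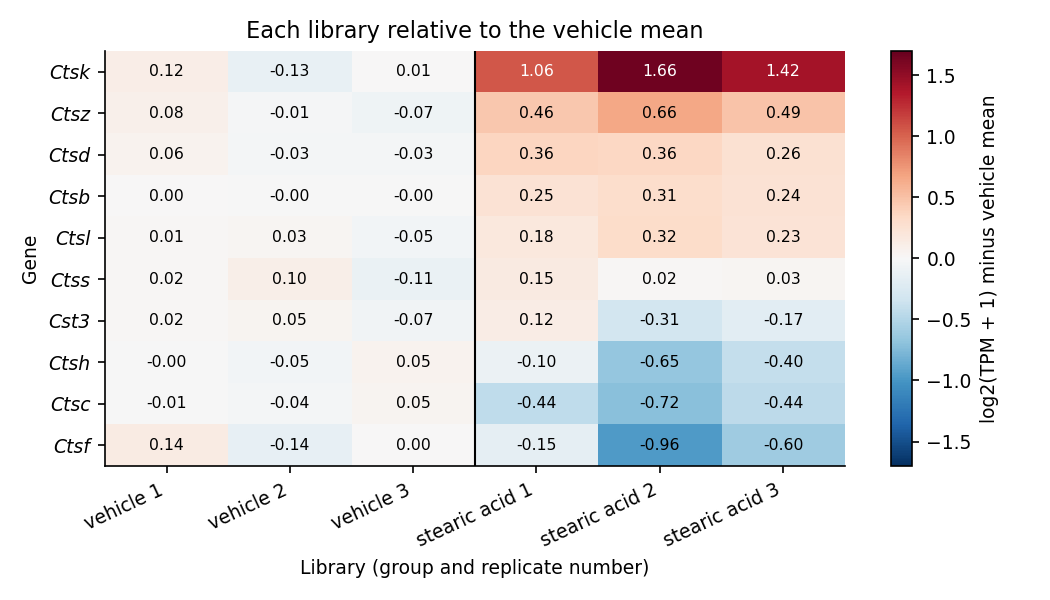
Log2(TPM + 1) of each gene (rows) in each library (columns) minus the vehicle mean of that gene, red for higher and blue for lower. Stearic acid replicate 2 has the largest deviation in 8 of the 10 genes, all except Ctsd and Ctss, and replicate 1 is the nearest to vehicle in 7, all except Ctsb, Ctsd and Ctss.

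The stearic acid libraries differed in how far the members moved. Over all 2856 genes that passed, the median log2 shift in the direction of the call was 0.28, 0.60 and 0.43 in replicates 1, 2 and 3. The falls followed that order, with Ctsh at -0.10, -0.65 and -0.40 and Ctsf at -0.15, -0.96 and -0.60 relative to the vehicle mean. Ctsd departed from it, at 0.36, 0.36 and 0.26, as did Ctsb, at 0.25, 0.31 and 0.24. Replicates 1 and 2 therefore moved alike in Ctsd and differed by over 0.5 on the log2 scale in Ctsh and Ctsf.

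Members could be set side by side by the root mean square difference of their values relative to vehicle over the 6 libraries, which share the same cells and sequencing. Ctsb and Ctsl were the closest pair, at 0.037 on the log2 scale, followed by Ctsb with Ctsd at 0.059 and Ctsd with Ctsl at 0.085. Among the members that fell, Ctsc and Ctsh were closest, at 0.14. Over the 9566 tested genes that averaged 5 TPM or more, the gene most like Ctsk by the same measure was Sqstm1, the autophagy receptor p62, at 0.049, followed by Layn, a hyaluronan receptor, at 0.053. Sqstm1 rose from 634 ± 38.9 to 1671 ± 352 TPM (SD, n = 3; log2 1.38). The 2 nearest genes were Spg21 and Adi1 for Ctsb, Rbm42 and Yif1b for Ctsd, St13 and Timm13 for Ctsl, and Ccdc124 and Nr2c2ap for Ctsz. For the members that fell they were Tmem50b and Melk for Ctsc, Fam122b and Cir1 for Ctsh, and Abtb1 and Kank2 for Ctsf. These distances ran from 0.017 to 0.058, and many genes lie close together when there are only 6 libraries. The measure includes the fold change itself, so closeness by it is not separate from the fold changes given above.

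Together the 9 cathepsins made up 1.80 ± 0.0514% of all TPM in vehicle and 2.15 ± 0.0640% with stearic acid (SD, n = 3). The summed level was 18494, 18143 and 17482 TPM in the vehicle libraries and 21921, 21778 and 20748 TPM in the stearic acid libraries, and every stearic acid library was above every vehicle library. Ctsd made up 45.9 ± 1.08% of the sum in vehicle and 48.3 ± 0.537% with stearic acid. The 3 members that fell were a small part, with a joint level of 412 ± 14.8 TPM in vehicle and 309.8 ± 54.2 TPM with stearic acid.

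The 8 cysteine cathepsins, which cystatin C can block, stood to Cst3 as 3.67, 3.67 and 3.69 to 1 in the vehicle libraries and as 3.91, 5.21 and 4.62 to 1 in the stearic acid libraries. The vehicle ratios were nearly the same, at 3.68 ± 0.0130, and those of stearic acid were all higher and spread widely, at 4.58 ± 0.654. The intracellular inhibitor Cstb, cystatin B, was tested beside it. It rose from 879 ± 107 to 1251 ± 119 TPM (log2 0.51, SE 0.10; adjusted p = 0.012, limma), a call lost without vehicle replicate 3 (0.060) and with no filter. Against Cst3 and Cstb combined the ratio was 2.77 ± 0.0669 in vehicle and 3.00 ± 0.190 with stearic acid, and the groups overlapped. Ratios of transcripts do not measure inhibition, and no test was made on these sums and ratios.

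**Figure D4:**
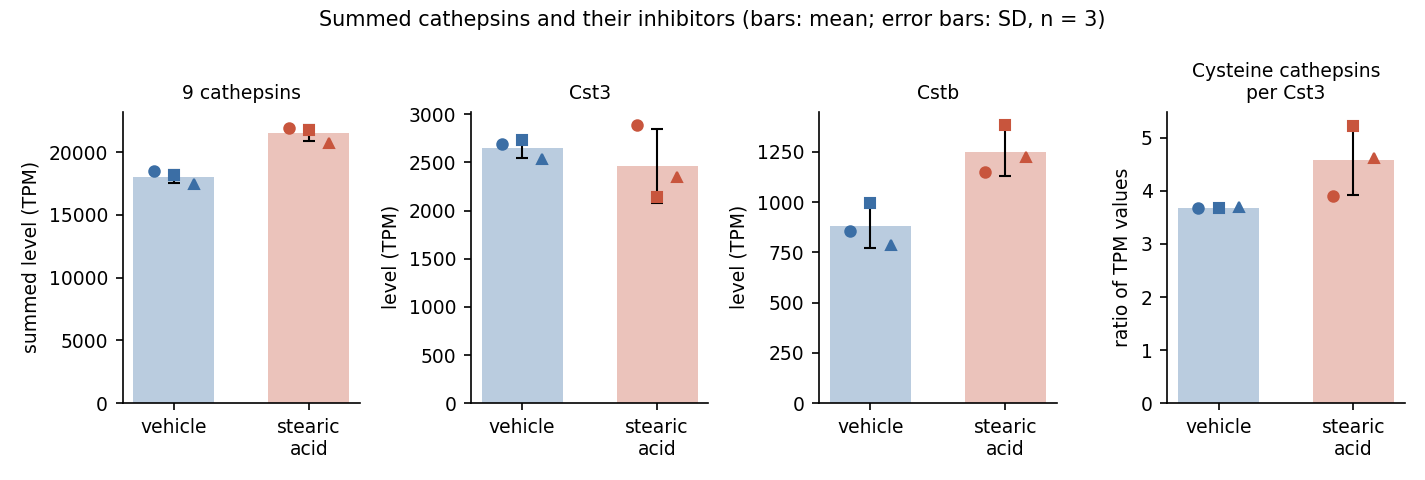
From left to right, the summed TPM of the 9 cathepsins, the TPM of Cst3, the TPM of Cstb, and the ratio of the 8 cysteine cathepsins to Cst3. Bars are means, error bars SD over 3 libraries and points the libraries, with the replicate number by shape as circle, square and triangle for 1, 2 and 3. The cathepsin sum and the ratio are higher in every stearic acid library, while the Cst3 values of the groups overlap.

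Of the other cystatins and stefins few were present. The tables named 17 of 19 listed, of which 2 were tested, and 12 were listed at 0 in every library. Beside Cstb the tested one was Cst7, cystatin F, at 3.22 ± 0.143 TPM in vehicle and 3.86 ± 0.477 TPM with stearic acid, which did not pass (log2 0.20; adjusted p = 0.17, limma).

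Of 11 tested other lysosomal cathepsins and peptidases, 2 rose, 1 fell and 8 did not pass, with a median log2 fold change of -0.22. The share that passed among all genes tested was 24.7%. Dpp7, a dipeptidyl peptidase, rose from 90.7 ± 2.45 to 115 ± 5.55 TPM (log2 0.34; adjusted p = 0.011, limma), a call lost without vehicle replicate 3 (0.056). Ctsa, the carboxypeptidase cathepsin A, rose from 576 ± 28.1 to 662 ± 7.48 TPM (log2 0.20; adjusted p = 0.045, limma). Cpq, a glutamate carboxypeptidase, fell from 52.9 ± 1.65 to 41.2 ± 4.43 TPM (log2 -0.36; adjusted p = 0.021, limma). Ctsa passed in 1 of the fits that left out a library, the one without stearic acid replicate 1, and Cpq lost its call when any vehicle library or stearic acid replicate 3 was left out. Legumain, Lgmn, which cleaves cathepsin precursors, was at 717 ± 33.1 TPM in vehicle and 582 ± 104 TPM with stearic acid and did not pass (log2 -0.32; adjusted p = 0.077, limma). Leaving out replicate 1 or 2 of vehicle or replicate 3 of stearic acid left 1 call in this list, leaving out vehicle replicate 3 left 0, and leaving out stearic acid replicate 1 gave 8.

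Of 13 tested genes that sort enzymes to lysosomes, 1 rose, 1 fell and 11 did not pass, beside the 24.7% of all tested genes that passed. Their median was 0.06. Gnptab, a subunit of the enzyme that starts the mannose 6-phosphate tag, rose from 95.004 ± 5.50 to 119 ± 7.24 TPM (log2 0.32; adjusted p = 0.019, limma). Ap1b1, a subunit of an adaptor for vesicles leaving the Golgi, fell from 139 ± 12.9 to 96.6 ± 19.6 TPM (log2 -0.54; adjusted p = 0.025, limma). Both calls were lost on leaving out any vehicle library or stearic acid replicate 3, and 4 genes of the list passed without stearic acid replicate 1. The receptors for the tag, M6pr (log2 0.03) and Igf2r (log2 -0.03), had adjusted p of 0.73 and 0.80.

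Among 9 tested regulators of lysosomal genes and of their nutrient control, 2 rose and none fell, with a median of 0.08. The share that passed among all genes tested was 24.7%. Rragd, a GTPase of that control, rose from 6.86 ± 0.370 to 11.3 ± 1.20 TPM (log2 0.65; adjusted p = 0.0039, limma) and passed whichever library was left out. Tfeb, the transcription factor named above for the promoter letters, rose from 28.0007 ± 3.62 to 36.4 ± 2.52 TPM (log2 0.37; adjusted p = 0.031, limma) and lost its call when replicate 2 or 3 of vehicle or replicate 3 of stearic acid was left out, so that 1 call remained in those fits. Its relatives Tfe3 (log2 0.003), Mitf (log2 0.08) and Tfec (log2 -0.15) did not pass.

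Of 27 tested genes listed with the lysosomal hydrolases and membrane proteins, 8 rose, 4 fell and 15 missed the threshold, with a median of -0.04. Of all genes tested 12.8% were higher and 11.9% lower. The 4 rises with the smallest p were in Lgals3, Cd63, Gla and Lipa. Lgals3, galectin 3, which gathers on damaged lysosomes, rose from 2819 ± 118 to 5964 ± 767 TPM (log2 1.07, adjusted p = 0.00035, limma). It is a lectin, and neither a lysosomal hydrolase nor a lysosomal membrane protein. The next largest rise was that of Cd63, a membrane tetraspanin (log2 0.54). Gla, alpha-galactosidase A, rose by a log2 of 0.41, and Lipa, lysosomal acid lipase, by 0.39. The falls included those of Arsb, arylsulfatase B (log2 -0.58), Man2b1, alpha-mannosidase (log2 -0.42), and Manba, beta-mannosidase (log2 -0.32). Lgals3, Cd63, Gla and Lipa passed whichever library was left out. The call of Arsb was lost on leaving out vehicle replicate 3, those of Man2b1 and Manba on leaving out any vehicle library or stearic acid replicate 3, and that of Manba also on leaving out stearic acid replicate 2. The list had 7, 7 and 6 calls when vehicle replicates 1, 2 and 3 were left out in turn, and 7 when stearic acid replicate 3 was.

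**Figure D5:**
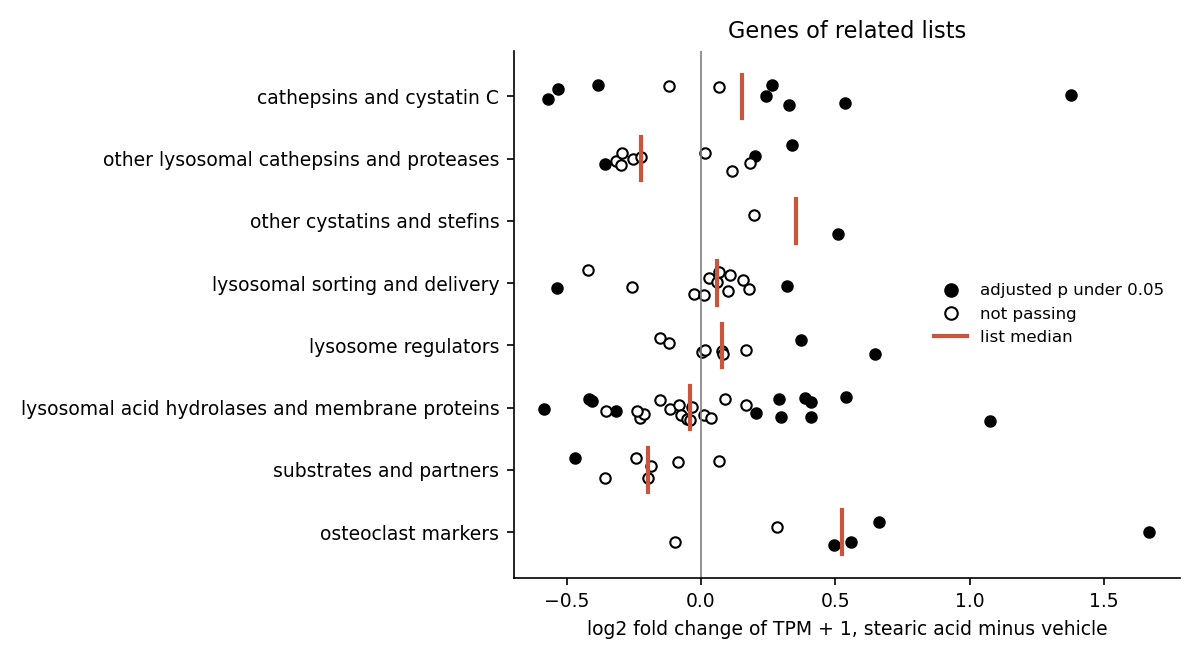
Log2 fold change of TPM + 1, stearic acid minus vehicle, for each tested gene of 8 lists, filled where the gene passed the adjusted threshold and open where it did not, with the list median in red. Vertical scatter only separates the points. The cathepsins, the other lysosomal proteases, the sorting genes and the lysosomal hydrolases have filled points on both sides of 0.

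Of 7 tested substrates and partners of cathepsins, 1 fell and none rose, with a median of -0.20. The share that passed among all genes tested was 24.7%. Lgals9, galectin 9, fell from 263 ± 10.8 to 190.4 ± 11.2 TPM (log2 -0.47; adjusted p = 0.0042, limma), whichever library was left out, and 5 genes of the list passed without stearic acid replicate 1. Bid, which cathepsins can cleave in the cytosol, was at 69.8 ± 1.41 TPM in vehicle and 73.5 ± 7.44 TPM with stearic acid (log2 0.07; adjusted p = 0.57, limma).

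Macrophage markers were abundant in every library, and their sum was 32824 to 33711 TPM in vehicle and 23443 to 29011 TPM with stearic acid. Of these 9 markers 1 rose, 4 fell and 4 did not pass, beside the 24.7% of all tested genes that passed. Lyz2, lysozyme, made up most of the sum. No dendritic cell marker and no erythroid or mast cell marker of the lists reached 1 TPM in any library. Neutrophil and progenitor markers summed to 55.0 to 63.5 TPM in vehicle and 33.1 to 46.2 TPM with stearic acid, most of it Cd34, and of the 4 tested 2 rose, 1 fell and 1 did not pass. Cd34, a progenitor marker, fell from 51.2 ± 5.16 to 27.0 ± 7.23 TPM (adjusted p = 0.0095, limma), a call lost on leaving out vehicle replicate 2 or 3. Kit, also a progenitor marker, went the other way but was too low to be tested. It was at 0.466 ± 0.0660 TPM in vehicle and 1.26 ± 0.182 TPM with stearic acid, and the groups did not overlap. The neutrophil genes that passed went up, S100a8 from 3.33 ± 1.19 to 6.41 ± 0.467 TPM (adjusted p = 0.016, limma) and Mmp8 from 2.22 ± 0.117 to 3.01 ± 0.0552 TPM (adjusted p = 0.029, limma). The call of S100a8 was lost without vehicle replicate 2, and that of Mmp8 in each fit that left out 1 library except stearic acid replicate 1. S100a9 was too low to be tested, at 0.295 ± 0.365 TPM in vehicle and 0.145 ± 0.126 TPM with stearic acid, and its groups overlapped. Lymphoid markers summed to 2.64 to 2.95 TPM in vehicle and 1.28 to 1.80 TPM with stearic acid. Cd79b, the only 1 of them tested, fell from 2.49 ± 0.206 to 1.27 ± 0.160 TPM (log2 -0.62; adjusted p = 0.0055, limma), whichever library was left out. Stromal markers summed to 2.67 to 4.39 TPM in vehicle and 1.22 to 3.35 TPM with stearic acid. The part of these shifts in the members' changes was not tested. Each library held between 58.1 and 80.8 M (1e+06) reads, or read pairs, as recovered from the tables, and 11379 to 11639 genes reached 1 TPM.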

How the data were processed

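Each library had 1 table of TPM and RPKM values per gene, as the authors deposited them; per the file headers, TPM is scaled so that a library sums to 1e+06, and RPKM is reads per kilobase per 1e+06 reads. DRAGEN is named in the submitters' processing notes, with the builds GRCm38 and mm10, 2 names of 1 assembly. Annotation, counting rule and strand use were not given in the sources used here. Depth was recovered from the RPKM steps of genes with 1 GENCODE M21 transcript. Only 26.1% to 27.2% of checked values were whole reads within 0.02, so no counts were rebuilt.

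limma 3.58.1 in R 4.3.3 (lmFit, eBayes with an intensity trend) was run on log2(TPM + 1), over the 11551 genes that averaged 1 TPM or more, with treatment as the only term. A fold change on this scale understates that of low genes, and TPM is a share of the library. The fit was tested on simulated data. Alternatives changed the pseudocount, filter, unit, scaling, trend, block or libraries. The members and all gene lists were chosen with earlier results of these data known. Genes named are the 10 members, called genes of the 7 pathway lists (all where there were 8 or fewer, otherwise the 4 smallest p in each direction) and the 2 nearest genes of each called member. The result of 1 gene that this rule names is not reported here. Nfatc1, Calcr, Oscar, Mmp9, Atp6v0d2, Acp5, Dcstamp and Itgb3 come from the marker lists. Cd74, Lgmn, Bid, Cst7, M6pr, Igf2r, Tfe3, Mitf, Tfec, Elane, Prtn3, Gzmb and Mpo were named after their values were seen. So were Fdft1, Lyz2, Cd34, Kit, S100a8, S100a9, Mmp8 and Cd79b. Coordinates and promoters are from RefSeq on GRCm38.p6, in which 35337 of 36333 gene numbers matched.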

Additional observations from a re-analysis of the deposited data

How the results depend on the processing

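Each result was recomputed under 15 alternatives, 6 of which left out 1 library. Ctsk, Ctsz and Ctsc passed in all 15, Ctsd in 13, Ctsb in 10, Ctsl in 8, Ctsf in 5 and Ctsh in 4. Ctss had the other sign, -0.21, under quantile normalization, and Cst3 passed in 1; the cause was not tested. With no filter on low values, which adds low genes to both the fit and the adjustment, 1027 genes passed (672 higher, 355 lower) in place of 2856 (1482 and 1374). The SE changed as well, being 0.149 in place of 0.066 for Ctsd and 0.084 in place of 0.087 for Ctsc. In that fit 2 members rose and 1 fell, and the calls were 1 among other proteases, 0 among other cystatins, 0 among sorting genes, 1 among regulators and 6 among hydrolases. The falling members numbered 1 with a pseudocount of 0.1, with RPKM, with median-of-ratios scaling and with no intensity trend. The log2 ratio of the summed cathepsins was 0.25, and 0.18 under quantile normalization.

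Same-numbered libraries deviated from their group means with correlations of 0.07, 0.29 and 0.04, and pairs with unlike numbers with -0.318 to 0.275. With so few libraries these values do not settle whether the numbers pair the samples. The main fit was planned without the replicate number. With the replicate number as a block, 3638 genes and the same count of 5 rising and 3 falling members passed, and the calls were 5 among other proteases, 4 among sorting genes and 3 among substrates.

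Leaving out 1 library gave 550 to 5010 genes (384 to 2223 higher, 142 to 2787 lower), 2 to 5 rising and 1 to 4 falling members, and log2 ratios of the summed cathepsins of 0.23 to 0.28. The calls ranged from 0 to 8 among other proteases, 0 to 2 among other cystatins, 0 to 4 among sorting genes, 1 to 2 among regulators, 6 to 17 among hydrolases and 1 to 5 among substrates. The results rest on 3 libraries per group, and the lowest coverage of any member in a library was 130.2 reads or read pairs per kilobase.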
